A study of Mus musculus with 12 samples.

Results

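Krt5, Krt14, Krt17, Krt6a, Krt6b, Krt16, Krtdap, Sbsn and Sprr1b are genes of the basal layer and of squamous keratinisation, the program by which a stratified epithelium such as skin builds its surface. They were chosen by symbol, 9 of the 24421 genes in the count tables, and all 9 were found in each of the 12 tables. The tables hold UMI counts (UMIs are molecular tags that mark single captured RNA molecules) of single cells from mammary tumours of untreated FVBN mice. Every mouse carried mMTV-Cre, a Cre recombinase under a promoter active mainly in mammary epithelium, and HER2 Crainbow, in which Cre turns on a form of the receptor tyrosine kinase HER2. Of 8 tumours of nulliparous mice, 5 were labelled p95 HER2 (15, 16, 17 or 20 weeks of age) and 3 d16 HER2 (16, 17 and 21 weeks). The other 4 came from multiparous mice of 16 or 17 weeks and had an unknown form of HER2. By growth pattern, 7 tumours were metaplastic/invasive (all p95 tumours and d16 tumours 2 and 3, called metaplastic here), 3 had the solid nodular label (multiparous tumours 2 and 4 and d16 tumour 1) and 2 were mixed (multiparous tumours 1 and 3).

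Keratins are filament proteins of epithelial cells that pair as a type II with a type I partner. Krt5 and Krt14 form the pair of basal and myoepithelial cells, whereas luminal mammary cells use Krt8 and Krt18. When squamous epithelium is activated or wounded, cells above the basal layer make Krt6a, Krt6b, Krt16 and Krt17, and the outer layers go on to make cornified proteins such as those encoded by Sprr1b, Sbsn and Krtdap. A healthy mammary gland has no such cornified layer.

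The tumours held between 140348 and 4394398 UMIs each, and 7366 of 8486 barcodes had at least 200 detected genes and were kept. Of the kept cells, 3818 (51.8%) fell in epithelial-like clusters, which were drawn and named without the 9 genes, and each tumour gave between 118 and 727 of them. The p95 tumour 1 and d16 tumour 1 were much shallower than the rest, with median counts of 452 and 449 UMIs per kept cell against 1111 to 4536 elsewhere. No 2 tables shared more than 3 barcodes. The labels do not say whether tumours came from separate animals, and p95 tumour 2 shares its title number with d16 tumour 2, as d16 tumour 3 does with p95 tumour 4, so p-values measure only the spread between these tumours.

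The genes lie in clusters on GRCm38 (GENCODE M21 annotation, all protein coding). The type II genes Krt6b (chr15:101676023-101680287), Krt6a (chr15:101689910-101694307) and Krt5 (chr15:101707070-101712898) stand side by side on the minus strand, with gaps of 9.62 and 12.76 kb. The type I genes Krt14 (chr11:100203162-100207548), Krt16 (chr11:100246091-100248902) and Krt17 (chr11:100256217-100261029) lie on the minus strand with gaps of 38.54 and 7.31 kb. Sbsn (chr7:30751471-30756134) and Krtdap (chr7:30787896-30791097) are 31.76 kb apart on the plus strand, and Sprr1b (chr3:92436809-92438789, minus strand) stands alone among them. The Krt6a and Krt6b transcripts were identical at 93.1% of aligned bases, and at 80.5% over their last 300 bases, where 3′ libraries read. The split of reads between Krt6a and Krt6b is therefore uncertain. Krt14 was identical with Krt16 at 84.7% and with Krt17 at 82.4% of aligned bases, but only at 67.2 and 69.3% over the last 300 bases.

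Nearly all RNA of these genes was counted in epithelial-like cells, and a single tumour gave a large part of it. Krt14 had 32118 UMIs in all kept cells, 98.2% of them in epithelial-like cells and 44.0% in p95 tumour 3. Krt5 had 16075 UMIs, 98.7% epithelial-like and 48.8% from p95 tumour 3. Krtdap, with 812 UMIs, was the most uneven, with 83.6% from p95 tumour 3. Sbsn was the exception in cell type, as only 78.4% of its 1531 UMIs were epithelial-like. Counts were concentrated in few cells: the 1% of epithelial-like cells richest in each gene held 41.3% of Krt5, 97.1% of Krt6b and 97.8% of Krtdap UMIs.

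Levels of tumours are given as CPM, UMIs of a gene per 1000000 UMIs in the summed epithelial-like cells of a tumour, with totals adjusted by TMM factors over the 12 tumours. In such sums, fewer cells of a type and less RNA per cell cannot be told apart. No length scale was applied, so levels are compared between tumours and not between genes.

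Krt5, the basal type II keratin, stood at 0, 343, 6877, 54.4 and 2023 CPM in p95 tumours 1 to 5. The d16 tumours 1 to 3 held 0, 37.6 and 474 CPM, and multiparous tumours 1 to 4 held 2543, 2.05, 1187 and 15.1 CPM. Thus p95 tumours 3 and 5 and both mixed tumours were above 1000 CPM, all 3 solid nodular tumours were below 16 CPM, and metaplastic tumours spanned the whole range. A count of 3 UMIs corresponds to 38.0 CPM in p95 tumour 1 and 12.3 CPM in d16 tumour 1, against 1.02 to 5.95 CPM in the others, so the 2 values of 0 do not show absence. The 250 bases before the RefSeq start of Krt5 (GRCm38.p6, chr15:101712906-101713155, gene strand shown) are printed here because Krt5 is the basal gene to set against the cornified genes further on. All letters are in lower case because none of the 4 motifs searched (a TATA box and AP-1, KLF and AP-2 sites, spelled out with the cornified genes) had a match in this window.
Krt5: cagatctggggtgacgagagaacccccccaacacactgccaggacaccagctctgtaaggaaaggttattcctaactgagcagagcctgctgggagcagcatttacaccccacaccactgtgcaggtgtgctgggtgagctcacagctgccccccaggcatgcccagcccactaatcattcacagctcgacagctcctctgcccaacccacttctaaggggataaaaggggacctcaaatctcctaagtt

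Krt14, the type I partner of Krt5, followed it. Its levels were 38.0, 1011, 12370, 355 and 4309 CPM in p95 tumours 1 to 5. The d16 tumours 1 to 3 were at 0, 120 and 1012 CPM. Multiparous tumours 1 to 4 held 4776, 39.2, 3031 and 74.1 CPM. The same 4 tumours led, and the solid nodular tumours again lay at the low end, with only p95 tumour 1 of the metaplastic tumours (38.0 CPM) inside their range. Over the 12 tumours, Pearson's r between log2 levels of Krt5 and Krt14 was 0.951, and 0.940 without p95 tumour 3, a description over points that also differ in depth.

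Krt17, a keratin of activated and basal-like epithelium, was measured at 12.7, 147, 2197, 105 and 867 CPM in p95 tumours 1 to 5. In d16 tumours 1 to 3 it was at 4.09, 22.7 and 309 CPM, and in multiparous tumours 1 to 4 at 1854, 7.50, 836 and 15.1 CPM. It was the most even of the keratins across the high tumours: p95 tumour 3 gave 31.8% of its UMIs, the lowest share of the 9 genes.

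The activation keratins spread further among the metaplastic tumours. Krt6a, the main inducible type II keratin, stood at 88.6, 1072, 6424, 9.23 and 1380 CPM in p95 tumours 1 to 5. The d16 tumours 1 to 3 had 0, 39.8 and 623 CPM. Multiparous tumours 1 to 4 held 2966, 17.0, 1577 and 63.5 CPM. The p95 tumour 4 departs from the basal pair here: it had 346 UMIs of Krt14 but only 9 of Krt6a in its epithelial-like cells, below all but 1 tumour in Krt6a CPM. The p95 tumour 2 departs the other way, with 541 UMIs of Krt6a beside 510 of Krt14 and 173 of Krt5. A part of each count came from 1 cell of 6002 UMIs. Over its own UMIs, that cell held 29157 CPM of Krt6a, 36654 of Krt14 and 17994 of Krt5. Krt16, the type I partner of Krt6 keratins, ranged from 12.1 (d16 tumour 2) through a median of 146 to 2678 CPM (p95 tumour 3) in metaplastic tumours. The solid nodular tumours held 0, 4.43 and 18.2 CPM of Krt16, and the mixed tumours 845 and 351 CPM, so only d16 tumour 2 of the metaplastic tumours lay inside the solid nodular range. Across tumours Krt6a and Krt16 had an r of 0.972 (0.968 without p95 tumour 3). Krt6b, a close copy of Krt6a, was at 799 CPM in p95 tumour 3, at 181 in multiparous tumour 1, at 45.4 in p95 tumour 5, at 20.4 in multiparous tumour 3 and below 12 CPM in every other tumour.

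The cornified genes Krtdap, Sprr1b and Sbsn had a UMI in 1.39, 5.32 and 10.9% of all epithelial-like cells, beside 1.73% for Krt6b. Sprr1b, a small proline-rich protein cross-linked into the cornified envelope, was at 1489 CPM in p95 tumour 3, 281 in multiparous tumour 1, 227 in p95 tumour 5, 149 in multiparous tumour 3, 87.2 in p95 tumour 2 and 71.6 in d16 tumour 3. All Sprr1b UMIs of p95 tumour 2 were in 1 of its 336 epithelial-like cells. The 6 other tumours, all 3 solid nodular ones among them, had 0 UMIs. Krtdap, a secreted protein of differentiating keratinocytes, was at 596 CPM in p95 tumour 3 (676 UMIs), at 48.7 in p95 tumour 5, and at or below 31.0 CPM in all others, with 0 in d16 tumours 1 to 3, multiparous tumour 2 and p95 tumour 4. Sbsn, which encodes the secreted protein suprabasin of the upper epidermal layers, had a flatter pattern. It ranged from 0 (p95 tumour 1) through a median of 55.5 to 464 CPM (p95 tumour 3) in metaplastic tumours, and stood at 8.19, 39.5 and 46.9 CPM in the solid nodular and 117 and 38.5 CPM in the mixed tumours. Krtdap and Sbsn lie 31.76 kb apart on chromosome 7, but their levels over the 12 tumours had an r of only 0.402, and 0.101 without p95 tumour 3.

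**Figure D1:**
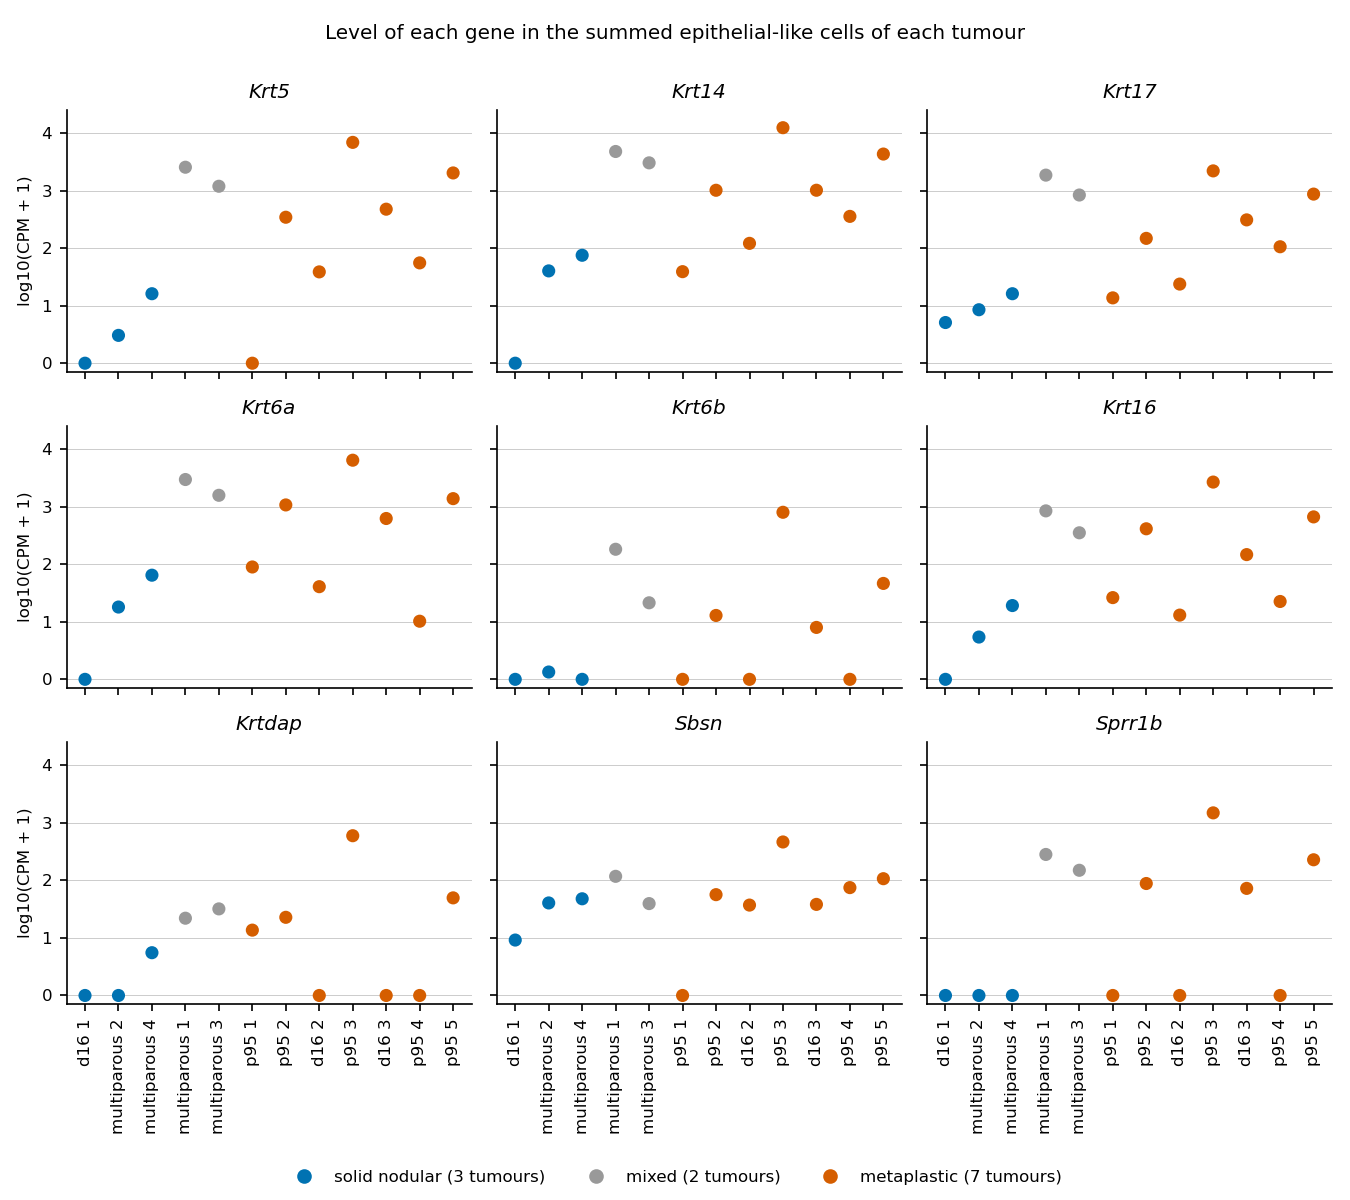
Level of each gene in the summed epithelial-like cells of each tumour, on a log10(CPM + 1) axis with TMM-adjusted totals, with tumours on the x axis and growth patterns as colours (1 point is 1 tumour). The p95 tumour 3 holds the highest point in all 9 panels (Krt14 12370 CPM), and the solid nodular tumours stay at or below 74.1 CPM for every gene.

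The promoter windows of the 3 cornified genes are shown because these genes were highest in the same tumour while differing in spread. Sequences are RefSeq's (GRCm38.p6), the 250 bases before the start on the gene strand, at chr7:30787655-30787904 (Krtdap, plus), chr7:30751221-30751470 (Sbsn, plus) and chr3:92438780-92439029 (Sprr1b, minus). Capitals mark matches to a TATA box (TATAAA, gene strand), an AP-1 site (TGANTCA, either strand) and a KLF site (CCACCC or its complement GGGTGG).
Krtdap: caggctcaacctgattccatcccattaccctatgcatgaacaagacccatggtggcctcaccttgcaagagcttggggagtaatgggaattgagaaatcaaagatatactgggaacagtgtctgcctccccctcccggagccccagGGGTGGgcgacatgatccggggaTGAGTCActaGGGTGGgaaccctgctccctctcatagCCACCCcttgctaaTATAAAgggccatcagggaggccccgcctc
Sbsn: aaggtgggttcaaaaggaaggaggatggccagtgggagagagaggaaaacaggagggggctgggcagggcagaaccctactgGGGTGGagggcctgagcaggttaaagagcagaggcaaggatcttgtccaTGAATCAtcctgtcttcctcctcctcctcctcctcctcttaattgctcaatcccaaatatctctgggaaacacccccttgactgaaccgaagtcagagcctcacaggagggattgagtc
Sprr1b: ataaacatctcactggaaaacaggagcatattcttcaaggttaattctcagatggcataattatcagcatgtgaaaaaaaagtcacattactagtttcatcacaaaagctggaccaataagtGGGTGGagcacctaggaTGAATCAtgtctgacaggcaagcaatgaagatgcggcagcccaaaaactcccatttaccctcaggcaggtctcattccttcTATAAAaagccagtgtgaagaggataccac
Krtdap and Sprr1b have TATAAA beginning 30 bases before the start, a match found in 7.59% of all 32851 promoters in the table. All 3 hold 1 AP-1 match, at 81 (Krtdap), 119 (Sbsn) and 111 (Sprr1b) bases before the start, against 6.75% of all promoters. KLF matches, present in 28.1% of all promoters, begin 104, 71 and 44 bases before the start of Krtdap, 168 before that of Sbsn and 128 before that of Sprr1b. The AP-2 letters GCCNNNGGC (either strand, 13.7% of all promoters) had no match in these 4 windows. The motifs were not tested against the data, and a match is a description of letters only. The table held 5 of the 9 genes, and the entry for Krt14 is not printed because its start lies inside the annotated gene.

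Solid nodular tumours had lower values of all 9 genes than metaplastic tumours on average, but none of the 9 passed the test over all genes, and the metaplastic tumours ranged widely. Of the solid nodular tumours 2 of 3 came from multiparous mice and of the metaplastic ones none, so growth pattern and parity cannot be fully told apart. In epithelial-like cells, 0 of the 9 genes were called by edgeR's quasi-likelihood test at a Benjamini-Hochberg adjusted p under 0.05, where 0.229% of all 9605 tested genes were called. At an unadjusted p under 0.05, 8 of the 9 genes and 1742 of all genes passed. In whole tumours 0 of the 9 were called beside 0% of 11394 tested genes, and 2229 genes had an unadjusted p under 0.05. The group values overlapped for all 9 genes in both fits, as they did for most tested genes. Without overlap were 265 genes with higher and 311 with lower values of 9605 in epithelial-like cells. In whole tumours it was 388 and 425 of 11394. Epithelial-like cells made up 68.2 to 86.8% of kept cells in solid nodular and 31.0 to 71.8% in metaplastic tumours, thus mostly higher in the group where the 9 genes had lower mean values.

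For Krt5 the log2 fold change (solid nodular minus metaplastic, epithelial-like) was −7.89 ± 2.33 (SE), with TMM-scaled means of 5.85 ± 8.46 (SD, n = 3) and 1397 ± 2500 CPM (SD, n = 7) and an edgeR adjusted p of 0.116. For Krt14 it was −6.06 ± 1.84 (edgeR adjusted p = 0.123) and for Krt17 −5.79 ± 1.62 (0.106). The activation keratins had values of −5.56 ± 1.92 for Krt6a (edgeR adjusted p = 0.155) and −6.12 ± 1.93 for Krt16 (0.129). Krt6b rested on 1 UMI in solid nodular tumours against 966 in metaplastic ones, a ratio of library-scaled counts of 540.5 with a 95% counting interval of 96.8 to 21370 (edgeR adjusted p = 0.195). Sprr1b had 0 UMIs against 2065 and was at least 385-fold lower in solid nodular tumours with the 3 tumours together given a floor of 3 counts (edgeR adjusted p = 0.168). Krtdap had 3 UMIs against 733, a ratio of 136.7 (46.6 to 664.4, edgeR adjusted p = 0.254). Sbsn stood apart with the smallest difference, −1.75 ± 0.93 on the log2 scale (edgeR adjusted p = 0.344). Ratios cover counting error only.

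These calls depend on the test and on single tumours. DESeq2 called 6 of the 9 genes in epithelial-like cells, beside 5.76% of 9585 tested genes. They were Krt5, Krt14, Krt17, Krt6a, Krt16 and Sprr1b, all lower in solid nodular tumours. In whole tumours DESeq2 called 5, the same without Sprr1b, beside 4.99% of 11374. Sprr1b, with 0 UMIs in solid nodular tumours, passed in no other alternative run. With the layout of the deposited tables as a covariate, edgeR called Krt5, Krt14 and Krt17 in epithelial-like cells (3.71% of all genes called) and in whole tumours (7.74%). Without d16 tumour 2, a metaplastic tumour with low levels of all 9 genes, edgeR called Krt17 alone in epithelial-like cells (adjusted p = 0.040, beside 4.34% of all genes) and 0 of the 9 in whole tumours (2.87%). Without p95 tumour 3, the log2 fold change was −6.44 for Krt5, −4.80 for Krt14 and −4.22 for Krt6a, and no member was called. Krt6b, Krtdap and Sprr1b rested most on that tumour. Of the UMIs of the metaplastic tumours it gave 906 of the 966 for Krt6b, 676 of the 733 for Krtdap and 1688 of the 2065 for Sprr1b. Without it the log2 fold change of Krtdap moved from −6.57 to −3.51 and that of Sbsn from −1.75 to −0.70.

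Among nulliparous tumours, all 9 genes had lower mean levels in d16 than in p95 tumours, and none was called. In epithelial-like cells, 0 of the 9 passed beside 0% of 9248 genes called (512 genes had an unadjusted p under 0.05, and DESeq2 called 2 genes). In whole tumours it was 0 of 9 beside 0% of 11061 (483 genes at an unadjusted p under 0.05, 3 called by DESeq2). The log2 fold changes in epithelial-like cells were −3.43 ± 1.84 for Krt5, −3.26 ± 1.71 for Krt14, −2.55 ± 1.40 for Krt17 and −3.02 ± 1.76 for Krt6a. Those of Krt6b, Krt16, Sbsn and Sprr1b were −5.75 ± 2.13, −3.76 ± 1.57, −2.31 ± 0.90 and −3.75 ± 1.91. The edgeR adjusted p was 0.812 for each gene. Krtdap had 0 UMIs in the d16 tumours against 733 in the p95 tumours, at least 214-fold lower with the same floor, and p95 tumour 3 gave 676 of the 733. Single tumours moved these values widely. Without p95 tumour 3 the log2 fold change was −1.85 for Krt5, −1.95 for Krt14, −1.37 for Krt17, −1.56 for Krt6a, −2.37 for Krt16, −1.17 for Sbsn and −1.69 for Sprr1b. Without d16 tumour 3 it was −6.29 for Krt5, −5.75 for Krt14, −5.32 for Krt17, −6.17 for Krt6a and −6.43 for Krt16, again with none called. The p95 tumours 1, 2 and 4 lay within the d16 range for Krt5 and Krt14. Because 1 of the 3 d16 tumours and none of the 5 p95 tumours was solid nodular, and growth pattern comparisons use the same tumours, the form of HER2 and the growth pattern cannot be fully told apart.

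Multiparous and nulliparous tumours overlapped for each of the 9 genes, as they did for nearly all tested genes. Without overlap were 30 genes with higher and 19 with lower values of 9608 in epithelial-like cells, and 62 and 68 of 11242 in whole tumours. In whole tumours 0 of the 9 were called beside 0.0801% of 11242 genes, and in epithelial-like cells 0 of the 9 beside 0% of 9608 (460 genes at an unadjusted p under 0.05, 14 called by DESeq2). Krt5 had a log2 fold change (multiparous minus nulliparous) of −0.41 ± 1.69 and an edgeR adjusted p of 0.999. Within the multiparous tumours the spread of Krt5 followed the growth pattern label: both mixed tumours held at least 1187 CPM and both solid nodular ones at most 15.1 CPM. Sbsn did not follow it, with 38.5 CPM in multiparous tumour 3 (mixed) against 39.5 and 46.9 CPM in multiparous tumours 2 and 4 (solid nodular). With 2 tumours against 2, no test was made.

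At the level of cells, the share of epithelial-like cells with a UMI of Krt5 or Krt14 was measured after thinning each cell to 500 UMIs, which kept 3250 cells and left out 568 shallower ones. The share was 2.27, 8.99, 62.8, 7.91 and 58.5% in p95 tumours 1 to 5. Of the d16 tumours it was 0, 1.91 and 19.2% in numbers 1 to 3. It was 54.3, 0.201, 38.6 and 2.48% in multiparous tumours 1 to 4. So at this depth cells with a UMI of Krt5 or Krt14 made up the greater part of the epithelial-like cells in p95 tumours 3 and 5 and multiparous tumour 1. They were rare in all 3 solid nodular tumours. Without thinning they were also the greater part in multiparous tumour 3, at 187 of 298 cells (62.8%). Of d16 tumour 1 only 134 of 315 cells and of p95 tumour 1 only 44 of 118 cells could be thinned. Of d16 tumour 2 151 cells were left out, and of every other tumour at most 58. The 0 of d16 tumour 1 allows, at 3 cells, up to 2.24% of cells with a UMI at this depth (exact 95% limit 2.72%), which does not limit the share of cells that express the genes.

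Cells with a UMI of any of the 6 squamous genes (Krt6a, Krt6b, Krt16, Krtdap, Sbsn, Sprr1b) made up 2.27, 18.3, 54.5, 3.39 and 33.5% of cells in p95 tumours 1 to 5. The d16 tumours 1 to 3 followed with 0.746, 2.08 and 16.6%. In multiparous tumours 1 to 4 they made up 37.0, 2.41, 28.9 and 5.45%. The order was much like that of the basal keratins. The widest gap in points was in p95 tumour 5, with a squamous share of 33.5% beside 58.5% for the basal keratins. The p95 tumour 2 went the other way, as its squamous share was 18.3% beside 8.99% for the basal keratins. In d16 tumours 1 and 2 and multiparous tumours 2 and 4, where both shares were at or below 5.45%, the squamous share was also the higher one. It rested on few cells, many with Sbsn: 10 of 12 in multiparous tumour 2 and 6 of 11 in multiparous tumour 4. In d16 tumour 2 it was 3 of 12, and in d16 tumour 1 the only cell, 1 of 1. Without thinning, shares of Krt5 or Krt14 ran from 0% (d16 tumour 1) to 81.0% (p95 tumour 5), and squamous shares from 0.635% (d16 tumour 1) to 66.0% (p95 tumour 3). By an exact two-sided permutation test over tumours, the Krt5 or Krt14 share was 0.892 ± 1.37% (SD, n = 3) in solid nodular and 23.1 ± 26.3% (SD, n = 7) in metaplastic tumours (p = 0.0917, 0.450 adjusted over 6 comparisons, smallest possible p = 0.00833). The squamous share was 2.87 ± 2.38% against 18.7 ± 19.5% (exact permutation p = 0.225, adjusted 0.450). In d16 against p95 tumours it was 7.04 ± 10.6% against 28.1 ± 29.9% for the basal keratins (exact permutation p = 0.304, adjusted 0.455) and 6.46 ± 8.77% against 22.4 ± 22.0% for the squamous genes (0.214, adjusted 0.450). In multiparous against nulliparous tumours the basal share was 23.9 ± 26.8% against 20.2 ± 25.7% (exact permutation p = 0.848), and the squamous share 18.4 ± 17.1% against 16.4 ± 19.2% (0.891), both with an adjusted p of 0.891. None of the 6 differences had an adjusted p under 0.05 by this permutation test, which does not show that the groups are alike.

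**Figure D2:**
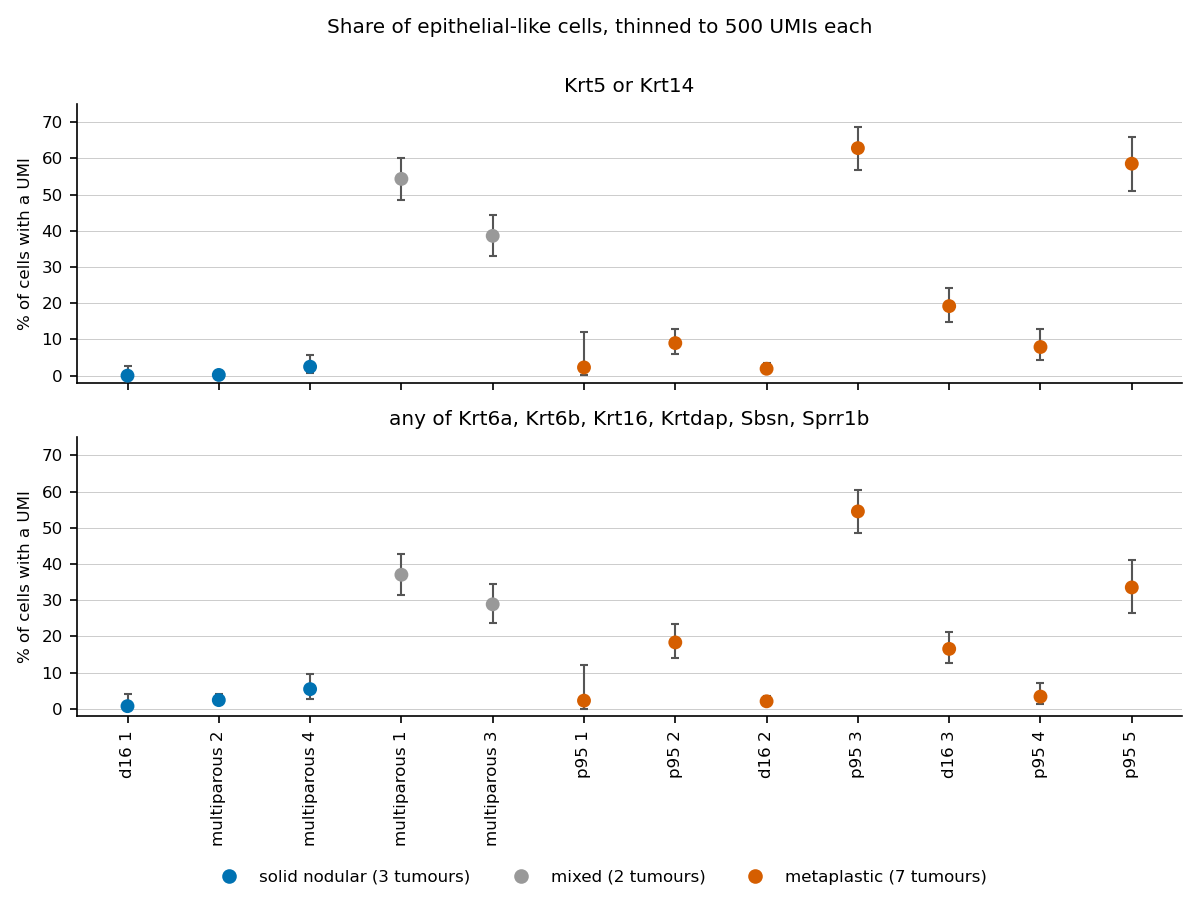
Share of epithelial-like cells, each thinned to 500 UMIs, with a UMI of Krt5 or Krt14 (upper panel) and of any of the 6 squamous genes (lower panel) in each of the 12 tumours, with exact 95% binomial intervals and growth patterns as colours. The p95 tumour 3 is highest in both panels (62.8 and 54.5%), and the 3 solid nodular tumours are at or below 5.45%.

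Free RNA in droplets can give UMIs of a gene to cells that do not make it, so other cell classes were measured beside the epithelial-like cells. Macrophage-like cells (median 1814 UMIs, against 2136 in epithelial-like cells) had a UMI of Krt5 or Krt14 in 1.48% of 810 thinned cells and of a squamous gene in 1.73%, against 20.4 and 16.8% of epithelial-like cells. That background is pooled over tumours. The Krt5 or Krt14 shares of d16 tumour 1 (0%) and multiparous tumour 2 (0.201%) lie below it, and those of d16 tumour 2 (11 of 576 cells), p95 tumour 1 (1 of 44) and multiparous tumour 4 (5 of 202) lie at 1.91 to 2.48%. Macrophage-like cells of the same tumours had no such UMI, in 0 of 110 cells of d16 tumour 2, 0 of 79 and 0 of 21 of multiparous tumours 2 and 4, and 0 of 17 and 0 of 15 of p95 and d16 tumours 1. The exact 95% limits of those 5 values (3.30, 4.56, 16.1, 19.5 and 21.8%) lie above the epithelial-like shares, so a difference within these tumours was not detectable at this depth by that comparison. Without thinning, 4 cells of d16 tumour 2 with both kinds of gene held 3639 CPM of Krt5 and 8939 CPM of Krt14. Neutrophil-like cells stood higher, at 10.8% for Krt5 or Krt14 and 4.50% for squamous genes, with a median of 647 UMIs. The Krt5 or Krt14 shares of p95 tumour 2 (8.99%) and p95 tumour 4 (7.91%) lie above the pooled macrophage-like value but below this neutrophil-like one. Which class better describes free RNA was not tested. In p95 tumour 3, 0 of 30 thinned macrophage-like cells had a UMI of Krt5 or Krt14 (exact 95% limit 11.6%), against 2.75% of fibroblast-like, 9.72% of neutrophil-like and 62.8% of epithelial-like cells. Sbsn differed from the others here: 2.64% of fibroblast-like cells had a UMI against 3.23% of epithelial-like cells and 0.247% of macrophage-like cells. Its share in multiparous tumour 2, 15.9% of unthinned epithelial-like cells, was 2.01% after thinning.

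**Figure D3:**
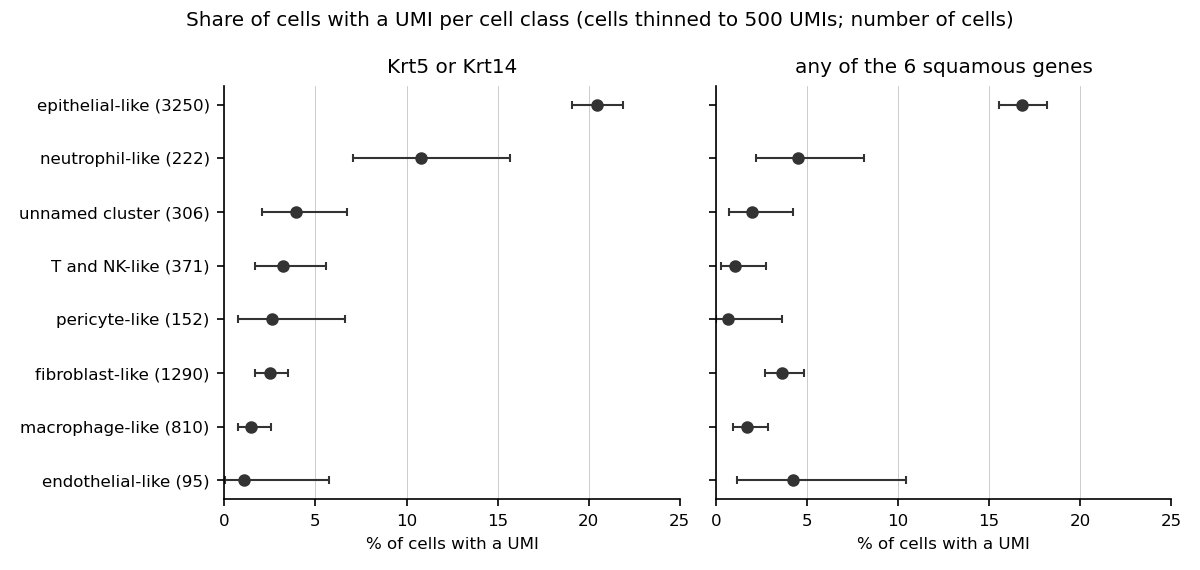
Share of cells with a UMI of Krt5 or Krt14 (left) and of any squamous gene (right) per cell class, all tumours joined and each cell thinned to 500 UMIs, with exact 95% binomial intervals and the number of cells in brackets. Epithelial-like cells stand at 20.4 and 16.8%, and the other classes with over 100 cells at or below 10.8 and 4.50%.

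Squamous genes were found far more often in cells that also had a basal keratin. In 8 tumours with at least 10 Krt5/Krt14-positive and 10 negative thinned cells, a squamous gene was detected in 43.8 ± 22.3% of positive and 10.7 ± 5.62% of negative cells (SD, n = 8). The p95 tumour 3 had 133 of 174 positive cells (76.4%) against 18 of 103 negative ones (17.5%). Multiparous tumour 1 had 91 of 157 (58.0%) against 16 of 132 (12.1%), and multiparous tumour 3 had 66 of 115 (57.4%) against 20 of 183 (10.9%). In p95 tumour 5 it was 49 of 103 (47.6%) against 10 of 73 (13.7%), in p95 tumour 2 it was 11 of 25 (44.0%) against 40 of 253 (15.8%), and in d16 tumour 3 it was 24 of 58 (41.4%) against 26 of 244 (10.7%). The 2 tumours with few positive cells, d16 tumour 2 (2 of 11, 18.2%, against 10 of 565, 1.77%) and p95 tumour 4 (1 of 14, 7.14%, against 5 of 163, 3.07%), had the smallest differences. Without d16 tumour 2 the mean difference was 35.4 points (exact sign-flip permutation p = 0.0156).

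The difference was positive in 8 of 8 tumours, with a mean of 33.1 ± 17.6 percentage points (SD, n = 8, exact two-sided sign-flip permutation p = 0.00781, the smallest that 8 tumours can give). With tumours that share a title number averaged, it was positive for 6 of 6 numbers (37.5 points, exact sign-flip permutation p = 0.0313, again the smallest possible). Without p95 tumour 3 it was 29.4 points. With Krtdap, Sbsn and Sprr1b as the only squamous genes it was 9.99 points (exact sign-flip permutation p = 0.0313). The 128 epithelial-like cells (3.35%) with doublet scores in the top 5% of their tumour were kept, and without predicted doublets the difference was 33.7 points. Thinning equalises total UMIs but not the share of free RNA in each droplet, whose part in the difference was not tested.

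**Figure D4:**
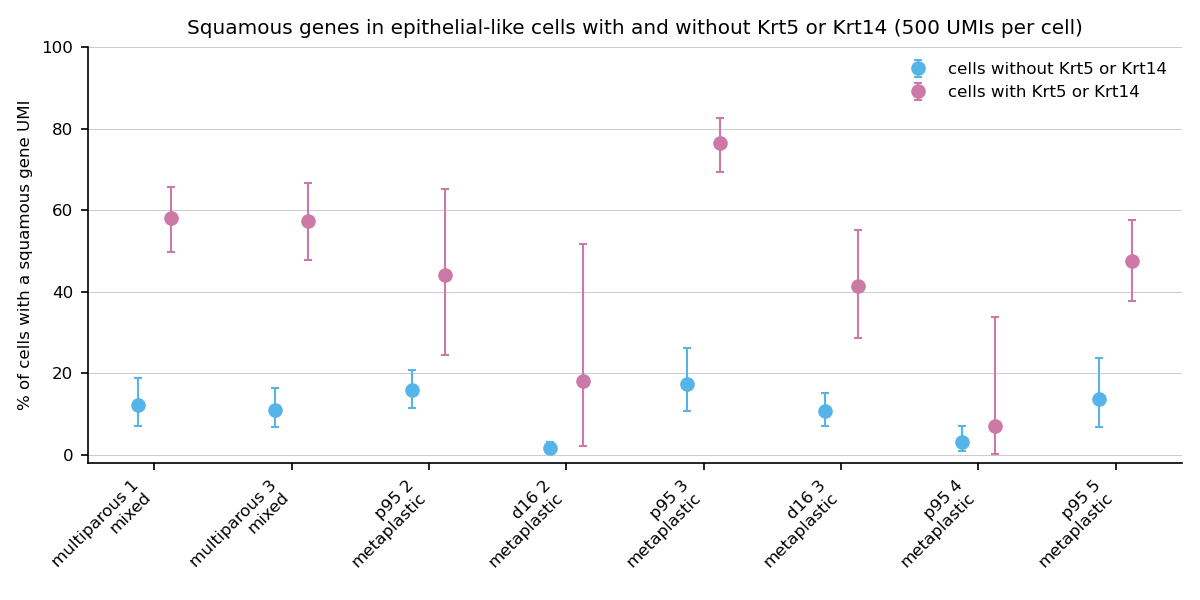
Share of epithelial-like cells with a UMI of any squamous gene among cells with and without a UMI of Krt5 or Krt14, for the 8 tumours with enough cells of each kind (500 UMIs per cell, exact 95% binomial intervals). The positive cells lie above the negative cells in 8 of 8 tumours, with the widest gap in p95 tumour 3 (76.4 against 17.5%).

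Gene by gene, co-detection was graded. Values here are means over tumours with at least 10 cells positive for the first gene, given as a description. Among Krt5-positive cells, 87.9% also had Krt14 (29.4% of Krt5-negative cells, 5 tumours), whereas 40.7% of Krt14-positive cells had Krt5 (7 tumours). Of Krt6a-positive cells 66.9% had Krt14 (27.4% of negative cells, 6 tumours), so that a part of the Krt6a cells had no Krt14 UMI at this depth. Krt16-positive cells had Krt6a in 67.5% (18.5% of negative cells), and Krt6a-positive cells had Krt16 in 33.0%. Sprr1b-positive cells had Krt14 in 93.1% and Krt6a in 85.7% (3 tumours). In p95 tumour 3, the only tumour with enough such cells, each of the 29 Krtdap-positive cells had Krt14, Krt6a and Krt16, as did each of the 27 Krt6b-positive cells, and 72.4% of the Krtdap-positive cells had Krt6b.

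The luminal keratins Krt8 and Krt18 moved the other way with the later genes. Krt8 or Krt18 was detected in 68.0% of Krt5-positive cells (84.1% of negative cells, lower in 5 of 5 tumours) and in 78.4% of Krt14-positive cells (86.5%, lower in 7 of 7 tumours), so most basal keratin cells also had a luminal keratin. In Sprr1b-positive cells it was detected in 39.0% (81.1% of negative cells, 3 tumours). In p95 tumour 3 it was found in 1 of 27 Krt6b-positive cells (3.70%) and in 0 of 29 Krtdap-positive cells (exact 95% limit 11.9% for cells with a UMI at this depth), against 184 of 248 Krtdap-negative cells (74.2%). Without thinning, 12 of 37 Krtdap-positive cells (32.4%) had Krt8 or Krt18, against 87.8% of negative cells. Most Sprr1b-positive cells had one without thinning, at 70.4% in p95 tumour 3 (86.2% of negative cells). In multiparous tumours 1 and 3 it was 84.2% (94.8%) and 78.6% (97.4%). In p95 tumour 5 the share was not lower, at 95.2% of 21 cells against 94.3% of negative cells.

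Levels in the same cells, here CPM over the plain total of UMIs, show the grades. In p95 tumour 3, the 37 Krtdap-positive cells held 47534 CPM of Krt5 plus Krt14, 22229 CPM of Krt6a, 200 CPM of Krt8 and 305 CPM of Krt18 when summed. The 147 Krtdap-negative cells with Krt6a held 17934 CPM of Krt5 plus Krt14, 2044 CPM of Krt8 and 2897 CPM of Krt18. Each of Krt5 (16475 against 6627 CPM) and Krt14 (31059 against 11307 CPM) was at a higher level in the Krtdap-positive cells of that tumour. The 5 Krtdap-positive cells of p95 tumour 5 and the 3 of multiparous tumour 1 had 24230 and 28712 CPM of Krt5 plus Krt14 against 8571 and 12449 CPM in Krtdap-negative cells with Krt6a. In multiparous tumour 1 this held for Krt14 (24780 against 7689 CPM) but not for Krt5 (3931 against 4760 CPM), from very few cells.

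**Figure D5:**
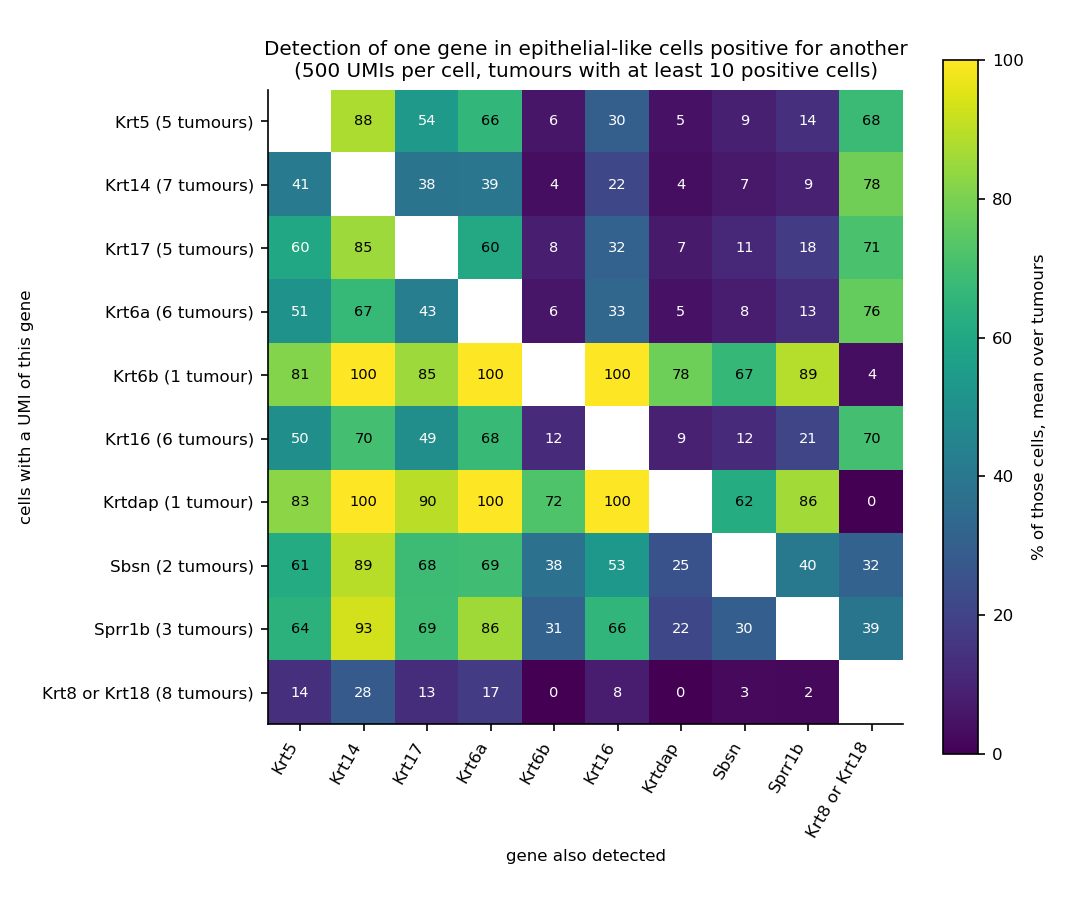
Share of epithelial-like cells with a UMI of the row's gene that also had a UMI of the column's gene (500 UMIs per cell), as a mean over the tumours with at least 10 positive cells, whose number is given beside each row. Rows for Sprr1b, Krt6b and Krtdap are high for Krt14 and Krt6a and low for Krt8 or Krt18 (39.0, 3.70 and 0%).

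The genes were concentrated in 2 clusters of basal epithelial-like cells, which were drawn without them. One of 362 cells, led by Col17a1, Il24 and Lama3 beside Krt5, Krt14 and Krt17, held 60.4% of Krt5 and Krt14 UMIs and 32.2% of squamous UMIs of epithelial-like cells. The other, of 88 cells with Cnfn, Cst6, Klk7 and Sprr1a among its leading genes, held 28.7% of Krt5 and Krt14 UMIs and 55.6% of squamous UMIs. It contained 52 cells of p95 tumour 3, 15 and 13 of multiparous tumours 1 and 3, 4 of p95 tumour 5, 3 of multiparous tumour 4, 1 of p95 tumour 2 and none of the others. Its levels over the plain total of UMIs were 25814 CPM for Krt14, 20973 for Krt6a, 6122 for Sprr1b and 2265 for Krtdap, against 10053, 3913, 221 and 7.30 CPM in the cluster of 362 cells. Another basal epithelial-like cluster of 384 cells, led by Stmn2, Ssu2 and Msln, held 1260 CPM of Krt14 but 78.4 CPM of Krt5 and 2.15% of the squamous UMIs.

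Other genes of the same programs were lower in solid nodular tumours without passing the test, from lists chosen with earlier results of these data known. All 17 tested of 20 basal genes, those that anchor basal cells to the basement membrane among them, had lower values (0 called, 11 at an unadjusted p under 0.05), with a median log2 fold change of −2.71 against 0.02 over all tested genes. Col17a1, a hemidesmosome collagen, stood at −8.04 ± 1.96 (edgeR adjusted p = 0.0823), and the laminin chains Lama3 and Lamb3 at −6.10 ± 1.52 (0.0885) and −3.52 ± 0.99 (0.107). Pdpn, which encodes podoplanin, was at −5.84 ± 1.47 (0.0885). Trp63, the transcription factor that maintains the basal layer, was named after its values were seen and stood at −2.85 ± 1.29 (edgeR adjusted p = 0.259). Of 10 myoepithelial genes 5 were tested, all with lower values (0 called, median −2.76), Tpm2 at −4.85 ± 1.01 (edgeR adjusted p = 0.0629) and Acta2, smooth muscle actin, at −3.08 ± 1.13 (0.172).

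Of 10 tested cornified envelope genes (31 in the list) 8 had lower values (0 called, median −1.14). Sprr1a, a relative of Sprr1b, was at −6.42 ± 1.44 (edgeR adjusted p = 0.0765) and Krt4, a keratin of internal stratified epithelia, at −5.53 ± 1.57 (0.101). Of 14 tested genes of stratified junctions 13 had lower values (0 called, median −0.998), Ly6d at −5.66 ± 1.14 (edgeR adjusted p = 0.0629) and the plakophilin gene Pkp1 at −2.17 ± 0.82 (0.187). Among 17 tested regulators of squamous differentiation 12 had lower and 5 higher values (0 called, median −1.10). Notch1, the receptor that drives suprabasal fate in skin, was at −2.44 ± 0.51 (edgeR adjusted p = 0.0629), the repressor Ovol1 at −1.50 ± 0.35 (0.0823) and the transcription factor Tfap2c, which went the other way, at 0.83 ± 0.24 (0.111). Of 13 tested genes of keratinocyte activation 11 had lower values (0 called, median −1.98), the cytokine gene Il33 at −5.00 ± 1.13 (edgeR adjusted p = 0.0774) and the serpin gene Serpinb2 at −8.01 ± 2.32 (0.101).

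Of 9 tested luminal keratin and junction genes, 6 also had lower values and 1 was called (median −1.36). Krt19, a keratin of luminal cells, was lower in solid nodular tumours, at 59.9 ± 45.5 (SD, n = 3) against 1825 ± 1225 TMM-scaled CPM (SD, n = 7), a log2 fold change of −4.85 ± 0.77 (edgeR adjusted p = 0.0449). The group values of Krt19 did not overlap, which held for 265 genes with higher and 311 with lower values of the 9605 tested (0.229% of genes were called). With parity as a covariate, in a fit that also held the mixed tumours, no gene was called, Krt19 included. No gene at all was called once d16 tumour 1, p95 tumour 2, 3 or 5, d16 tumour 3, or multiparous tumour 2 or 4 was left out. Krt7 was at −1.69 ± 0.39 (edgeR adjusted p = 0.0809) and Krt18, the partner of Krt8, at −1.37 ± 0.36 (0.0960), with means of 1697 and 4382 CPM.

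For the form of HER2, 0 genes of these lists were called in epithelial-like cells. Lower values in d16 than in p95 tumours were found for 16 of 17 basal genes (median log2 fold change −1.53), 9 of 10 cornified envelope genes (−1.61), 13 of 14 junction genes (−1.17) and 12 of 13 activation genes (−1.19), against a median of 0.000835 over all tested genes. The 5 myoepithelial genes had a median of −0.78, the 17 regulators −0.48 and the 9 luminal genes −0.44. For parity, 0 list genes were called, and medians ran from 0.28 for the basal genes, with 10 of 18 higher in multiparous tumours, to −0.67 for the luminal genes, with 9 of 9 lower. The other 5 lists lay between −0.39 and 0.00281.

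Among the genes whose log2 CPM over the 12 tumours was most like that of Krt5 plus Krt14 (7162 candidates) were Carhsp1 (r = 0.984), Nbl1 (0.977), Ecm1 (0.974), Actn1 (0.974), Fst (0.968), Lamb3 (0.966), Cav1 (0.965), Itgb4 (0.964) and Lgals1 (0.964). For the sum of the 6 squamous genes they included Ppard (0.978), Lgals7 (0.958), Nudc (0.956), Sema3c (0.955), Sncg (0.944), Emp3 (0.944), Carhsp1 (0.943), Lrp1 (0.935) and Dsp (0.934). The 2 sums themselves had an r of 0.960, and 0.954 without p95 tumour 3. With 12 tumours of very unequal depth, such values describe a shared order of tumours only.

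Within tumours, over single epithelial-like cells, likeness was weaker. Of 9655 candidates, the highest mean correlations with the squamous sum were those of Slc6a11 (0.345, from 1 tumour only), Dmkn (0.326), Col17a1 (0.316), Dsc3 (0.311), S100a14 (0.305), Tns4 (0.290), Trim29 (0.288), Anxa8 (0.286), Sfn (0.280) and Ly6d (0.272). Dmkn and Dsc3 encode dermokine and a desmosomal cadherin of stratified epithelia, and Sfn encodes stratifin, a 14-3-3 protein of keratinocytes. Trp63 ranked 27 (0.20 over 10 tumours), and Krt8 and Krt18 stood at −0.01 and −0.05.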

How the data were processed

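Tumours were dissociated and single cells sequenced with the ddSEQ SureCell 3′ assay, per the labels' protocols. As deposited, values are whole-number counts of UMIs for each cell and gene, without normalisation. Seurat 3.0.2 and GRCm38 are named in the submitters' processing notes, and the aligner and counter are not given in the sources used here. The 9 genes, the lists and the comparisons were chosen with earlier results of these data known.

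Cells with at least 200 genes were kept (7366), scaled to 10000 UMIs and clustered on 2000 variable genes (30 components, 15 neighbours, Leiden resolution 1, scanpy 1.11.5, Python 3.11.15), with the 9 genes left out. Of 22 clusters, those with at least 3 luminal or basal markers, each in 10% of cells, were called epithelial-like. Names are rebuilt, not the authors'. Cells with doublet scores in the top 5% of each tumour (363) were marked and kept. No mitochondrial genes are in the tables. In 8 tables, 27 gene names had been turned into dates, which is the layout covariate.

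Counts were summed per tumour and fitted over all genes with edgeR 4.0.16 (TMM, quasi-likelihood, filterByExpr, Benjamini-Hochberg, R 4.3.3), and tested on simulated data first. Mixed tumours entered the parity fit and, as a level of their own, the growth pattern fit with parity as a covariate. They entered no other fit. The rule for named genes took the 9 genes, up to 4 genes per list with the smallest p in the growth pattern fit of epithelial-like cells, and 10 genes per likeness ranking (average log2 CPM of at least 4 over tumours, detection in 2% of cells within tumours of at least 50 cells). A few genes that this rule picked are not reported here. Shares were compared by exact permutation over tumours with at least 20 cells. Intervals are exact 95% binomial, and floors are 3 counts. Both cover counting error only. Alternatives were DESeq2 1.42.0, limma-voom 3.58.1, other filters, covariates, thinning depths, gates and leaving out each tumour.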

Additional observations from a re-analysis of the deposited data

Results flagged for a closer look

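In a check for a sample far from the others of its group, 17 of 34 groups of tumours had such a sample in epithelial-like cells. Chance gives about 1 in 20 for normally distributed values. The CPM values were strongly skewed, so that rate does not apply to them. In metaplastic tumours, Krt14 ran from 38.0 through a median of 1011 to 12370 CPM. The groups share tumours and the genes vary together, so these are not separate events. Among the 7 metaplastic tumours, p95 tumour 3 lay far above the next tumour for all 9 genes. It held 6877 CPM of Krt5 (next 2023), 12370 CPM of Krt14 (4309) and 2197 CPM of Krt17 (867.3). For the activation keratins it held 6424 CPM of Krt6a (1380), 799 CPM of Krt6b (45.42) and 2678 CPM of Krt16 (664). For the cornified genes it held 596.2 CPM of Krtdap (48.67), 463.9 CPM of Sbsn (106) and 1489 CPM of Sprr1b (227.1). Among the 5 p95 tumours the same tumour stood apart, with the same values, for Krt6a, Krt6b, Krt16, Krtdap, Sbsn and Sprr1b, but not for Krt5, Krt14 and Krt17. Among the 4 multiparous tumours, multiparous tumour 1 stood apart for Krt6b (181.1 CPM, next 20.39) and for Sbsn (116.6 CPM, next 46.89).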

How the results depend on the processing

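For growth pattern and form of HER2, 626 recomputed fold changes over 32 gene results kept their direction, and 17 passed the threshold that the reported ones missed. Sprr1b for growth pattern and Krtdap for form of HER2, with 0 UMIs in 1 group, are not among them. Of these, Sprr1b in epithelial-like cells passed with DESeq2 (adjusted p = 4.28e-10) and in no other setting, against a group with 0 UMIs. It did not pass with DESeq2 in whole tumours (adjusted p = 0.142). With limma-voom without a block in epithelial-like cells its adjusted p was 0.680. The number of genes called was the unstable quantity. For growth pattern in whole tumours (0 called) it was 567 with DESeq2, 21 with voom, 33 with no filter, 882 with the layout covariate and 0 to 324 without 1 tumour (324 without d16 tumour 2, 19 without p95 tumour 4). In epithelial-like cells (22 called) it was 552 with DESeq2, 70 with no filter, 356 with the layout covariate, 12 with a 500-gene minimum, 1 with cells gated by UMIs of Epcam, Krt8, Krt18 or Cdh1 and none of Ptprc, 0 with parity as a covariate, 0 without both shallow tumours and 0 to 400 without 1 tumour (400 without d16 tumour 2, 35 without p95 tumour 4). For form of HER2 in whole tumours (0) it was 3 with DESeq2 and 0 to 2 without 1 tumour (2 without d16 tumour 3), and in epithelial-like cells (0) 2 with DESeq2 and 1 with no filter. For parity in whole tumours (9) it was 157 with DESeq2, 15 with voom, 4 with the layout covariate, 5 without doublets, 4 without the shallow tumours and 3 to 20 without 1 tumour. It was 20 without d16 tumour 1, and 3 to 5 without any other tumour except multiparous tumour 2 and p95 tumours 3 and 4. For parity in epithelial-like cells (0) it was 14 with DESeq2, 1 with voom and 0 to 3 without 1 tumour (3 without p95 tumour 3). The causes were not tested.

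With the title number as a replicate block in limma-voom, growth pattern in epithelial-like cells had 0 genes called (18 by voom with no block), form of HER2 had 1, and parity 3 (whole tumours) and 1 (epithelial-like cells). Fewer than 3 pairs share a number, and the labels do not say that a number is an animal.

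Share differences for growth pattern and form of HER2 kept their direction and stayed past no threshold in the alternatives run. For parity, directions changed. Its Krt5 or Krt14 share (3.69 points) was −2.66 without the shallow tumours and −6.45 to 11.6 without 1 tumour, below 0 without multiparous tumour 1 (−6.45) or 3 (−1.20). Its squamous share (2.01 points) was −2.04 at 1000 UMIs, −0.38 with at least 2 UMIs, −0.603 for the late genes, −2.97 without the shallow tumours and −4.19 to 7.45 without 1 tumour, below 0 without p95 tumour 1 (−0.0151), d16 tumour 1 (−0.233), d16 tumour 2 (−0.0421) or multiparous tumour 1 (−4.19) or 3 (−1.47). The Krt5 fold change for parity was −1.62 to 1.10, above 0 without multiparous tumour 2 (0.000857), multiparous tumour 4 (0.00462) or p95 tumour 3 (1.10). The co-detection difference stayed positive in all alternatives run. The settings without both shallow tumours, without Sbsn and with title numbers averaged were chosen after seeing the data. Depth limits what is read from p95 tumour 1 and d16 tumour 1, with 14 and 3 UMIs of the 9 genes.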
